A study of Mus musculus with 3 samples.

Results

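Transcript levels of 10 genes of the SLAM (signalling lymphocytic activation molecule) family and its adaptor were described in activated regulatory T cells (Treg cells), a CD4 T cell lineage that depends on the transcription factor Foxp3 and holds immune responses in check. The members were the receptor genes Slamf1, Slamf6, Slamf7, Slamf8, Slamf9, Cd48, Cd84, Ly9 and Cd244 and the adaptor gene Sh2d1a. They were chosen by name, though with earlier results of these data known. All 10 were found among the 55536 annotated genes of the table. Cd244 was listed as Cd244a. The study sequenced polyadenylated RNA of 1 biosample of primary cells from 1 male mouse of 9 weeks. It held 3 technical libraries, numbered here as the labels number them, and no second group, so no treatment or genotype was compared. The sources used here do not give the strain of the mouse or how the cells were activated and sorted. All SDs below have n = 3 and all p-values compare libraries of the same biosample, so both measure technical spread only.

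SLAM family receptors are cell surface proteins of the immunoglobulin superfamily, and most of them bind the same receptor on a neighbouring cell. Cd48 is the exception among the abundant members: it encodes a lipid-anchored protein without a cytoplasmic tail that is a ligand of the receptors encoded by Cd244 and Cd2. The tails of several other members carry switch motifs, short stretches around a tyrosine. Once phosphorylated, the tyrosine is bound by SAP, the small adaptor encoded by Sh2d1a, which recruits the kinase Fyn. Without SAP, the same motifs can bind inhibitory phosphatases. In T cells the family is known for its part in contacts between T and B cells and in the development of innate-like T cells, and loss of SAP in humans causes X-linked lymphoproliferative disease.

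The libraries held 31445344, 32612609 and 37259281 expected counts in libraries 1, 2 and 3. The T cell marker list (Cd3d, Cd3e, Cd3g, Lck, Thy1 and Cd4) was detected in full and summed to between 4931 and 4977 TPM (a transcript level corrected for length and library size). The Treg list (Foxp3, Il2ra, Ctla4, Ikzf2 and Tnfrsf18) was also detected in full and summed to between 2082 and 2134 TPM, with Foxp3 the lowest at 135 TPM. Throughout, a gene was detected if each of the 3 libraries gave it 1 TPM or more. The granulocyte and mast cell list stood apart in library 1, at 15.5 TPM against 0.44 and 2.07 TPM in libraries 2 and 3.

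Because the switch motif is the docking site of SAP, the coding sequences of all members were searched for it in GENCODE M21 transcripts on mm10. The motif was taken as the codons for threonine, any residue, tyrosine, any residue, any residue, and valine or isoleucine. It counted as lying in the tail where it followed the last hydrophobic stretch of the predicted protein (mean hydropathy of at least 1.6 over 19 residues). The motifs of the 5 receptor genes that were detected and had a tail motif are printed 5′ to 3′ on the coding strand, with the tyrosine codon in capitals. The tyrosine codon is TAC in the second motifs of Slamf6 and Ly9 and TAT in the others.
Slamf6 first, chr1:171939437-171939454, plus strand: actgtgTATgcacaagtc
Slamf6 second, chr1:171941664-171941681, plus strand: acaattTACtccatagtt
Ly9 first, chr1:171593912-171593929, minus strand: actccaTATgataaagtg
Ly9 second, chr1:171593438-171593455, minus strand: acaatcTACtgctctgtg
Cd84 first, chr1:171884605-171884622, plus strand: acagtaTATgctgtagtt
Cd84 second, chr1:171885601-171885618, plus strand: accattTATtcctcagtg
Slamf1 first, chr1:171792339-171792356, plus strand: actattTATgcccaagta
Slamf1 second, chr1:171799588-171799605, plus strand: acagttTATgccagtgtg
Slamf7, chr1:171636327-171636344, minus strand: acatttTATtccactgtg

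Slamf6, Ly9, Cd84 and Slamf1 each had 2 tail motifs in their longest proteins, Slamf7 had 1, and Cd244, which was not detected, had 4 in its coding transcript. Cd48, Slamf8 and Slamf9 had none after a hydrophobic stretch. Among 7633 protein-coding genes with a hydrophobic stretch, 2.83% had at least 1 motif after the last one and 0.183%, or 14 genes, had at least 2. Over 21732 genes with a complete coding sequence, and counting any position, 7.88% had at least 1 motif. A match of this kind is a description of the sequence and does not show that the site is used.

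Of the 10 members, 7 were detected, against 10429 of 22028 protein-coding genes (47.3%). The median over all 10 members was 80.8 TPM, beside a median of 0.808 TPM over all protein-coding genes and 29.2 TPM over the detected ones. The 10 genes together summed to 1541, 1549 and 1509 TPM in libraries 1, 2 and 3. Cd48 and Slamf6 made up 66.9% ± 0.648 (SD, n = 3) of this sum, and Sh2d1a 13.9% ± 0.322.

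**Figure D1:**
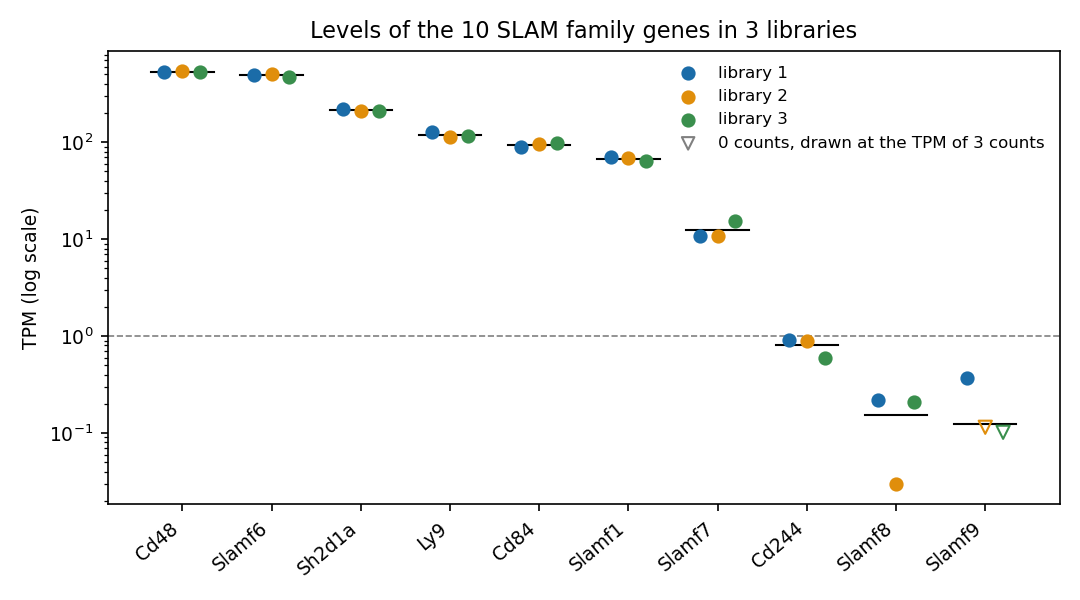
TPM (log axis) of the 10 members, with a point for each of the 3 libraries and a black line at the mean; the dashed line marks 1 TPM and open triangles mark libraries with 0 counts, drawn at the TPM that 3 counts would give. Cd48 and Slamf6 lie between 473 and 538 TPM, 4 members between 64.0 and 220.3 TPM, Slamf7 near 12.3 TPM, and Cd244, Slamf8 and Slamf9 below 1 TPM in every library.

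Cd48 (ENSMUSG00000015355.13, mm10 chromosome 1, 171682009 to 171705258, plus strand) was the most abundant member by TPM. It stood at 532, 538 and 534 TPM in libraries 1, 2 and 3, a mean of 535 ± 3.15 TPM. Its coefficient of variation over the 3 libraries was 0.589% by TPM and 1.90% by expected counts scaled by library size. The gene ranked 220th among the detected protein-coding genes, at percentile 97.9.

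Slamf6 (ENSMUSG00000015314.10, chromosome 1, 171917515 to 171953170, plus strand), whose product binds itself between cells, was the most abundant receptor with a switch motif. Its libraries gave 490.4, 509 and 473 TPM, a mean of 491 ± 18.3 TPM. Library 2 was the highest and library 3 the lowest, and none of them reached the lowest value of Cd48.

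Ly9 (ENSMUSG00000004707.14, chromosome 1, 171588624 to 171607410, minus strand), which encodes the self-binding receptor CD229, stood at 127, 113 and 116 TPM, a mean of 119 ± 6.90 TPM. Cd84 (ENSMUSG00000038147.13, chromosome 1, 171839697 to 171890718, plus strand), another self-binding receptor gene, stood at 88.6, 96.2 and 97.7 TPM, a mean of 94.2 ± 4.86 TPM. Slamf1 (ENSMUSG00000015316.11, chromosome 1, 171767127 to 171801184, plus strand), which encodes CD150, the receptor that named the family, stood at 69.97, 68.2 and 64.0 TPM, a mean of 67.4 ± 3.05 TPM. The libraries of these 3 receptor genes did not overlap with each other. Library 1 was the highest for Ly9 and Slamf1 and the lowest for Cd84.

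Slamf7 (ENSMUSG00000038179.13, chromosome 1, 171632403 to 171653035, minus strand), known from natural killer (NK) cells and plasma cells, was the lowest detected member. Its libraries gave 10.8, 10.7 and 15.5 TPM, a mean of 12.3 ± 2.76 TPM, with library 3 apart from the other two. Its percentile among detected protein-coding genes was 27.8. The plasma cell list (Jchain, Mzb1, Sdc1 and Tnfrsf17) summed to 19.4, 8.49 and 21.5 TPM, highest in library 3 as well but lowest in library 2, with Tnfrsf17 at 0 in all libraries and Jchain the highest at 13.7 TPM. The NK list summed to 3.53, 4.13 and 3.73 TPM in libraries 1, 2 and 3, highest in library 2. The antisense gene Gm37787, which overlaps Slamf7, had 3.51, 7.45 and 20.8 expected counts, highest in library 3 like Slamf7. The sources used here do not say whether reads were counted by strand, and the part of these values in the Slamf7 level was not tested.

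The detected members were put in order of mean TPM over these same libraries: Cd48, Slamf6, Sh2d1a, Ly9, Cd84, Slamf1 and Slamf7. The order itself set which gene of a pair was the higher, so the direction of the ratios was not tested. Neighbours were compared by their log2 TPM ratio in each library. They were called beyond the spread where all 3 ratios pointed the same way and averaged more than 2 SD. With 3 libraries, the smallest p of an exact sign-flip test is 0.25, so none is given. All 6 ratios passed. Cd48 exceeded Slamf6 by 0.12 ± 0.05 log2 units (1.09-fold), the narrowest step by TPM, and Slamf1 exceeded Slamf7 by 2.47 ± 0.37 (5.55-fold), the widest. The steps between were 1.20 ± 0.06 from Slamf6 to Sh2d1a, 0.85 ± 0.05 from Sh2d1a to Ly9, 0.34 ± 0.16 from Ly9 to Cd84 and 0.48 ± 0.14 from Cd84 to Slamf1. Without library 1 the step from Cd48 to Slamf6 (0.13) no longer exceeded 2 SD, nor without library 3 the step from Ly9 to Cd84 (0.38). The size of the first step depended on how length was treated: with complete coding transcripts only it was 0.69 ± 0.05, and Ly9 to Cd84 (0.23) was then the narrowest. In expected counts per base of the longest complete coding transcript it was 2.25 ± 0.06, and Sh2d1a exceeded Slamf6 there (log2 ratio of Slamf6 to Sh2d1a -0.32). For Slamf6 that longest transcript was Slamf6-207 (5729 bases), which held only 3.70% of the gene's TPM. For Sh2d1a it was Sh2d1a-207 (1223 bases), with 0.0437%. In CPM (expected counts scaled by library size, without a length correction) the log2 ratio of Cd48 to Slamf6 was -0.07 ± 0.06, not beyond the spread, and that of Sh2d1a to Ly9 was -0.77, with Ly9 the higher.

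The other 3 members did not reach 1 TPM in any library. Cd244 (ENSMUSG00000004709.14, chromosome 1, 171559193 to 171609746, plus strand), the NK and CD8 T cell receptor for the Cd48 product, stood at 0.92, 0.90 and 0.59 TPM, from 35, 39 and 25 expected counts. Slamf8 (ENSMUSG00000053318.7, chromosome 1, 172581758 to 172590568, minus strand), known from macrophages, had 7, 1 and 8 counts, or 0.22, 0.03 and 0.21 TPM. Slamf9 (ENSMUSG00000026548.4, chromosome 1, 172475358 to 172478575, plus strand) had 9 counts in library 1 (0.37 TPM) and 0 in libraries 2 and 3, which allows up to 0.115 and 0.102 TPM there, taking 3 counts as the floor. Library 1, the only one with Slamf9 counts, was the library with the most granulocyte and mast cell marker RNA (15.5 TPM). A link between these values was not tested. In bulk RNA, few cells with a transcript and a low level in every cell cannot be told apart.

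Marker lists of the cell types in which these members are best known summed to less than the T cell and Treg lists in every library, but were not absent. The macrophage and monocyte list (9 genes, 6 detected) summed to between 61.97 and 63.9 TPM, led by Lyz2 at 24.9 TPM, with Cd14 the lowest at 0.273 TPM. The NK list (5 genes, 2 detected) summed to between 3.53 and 4.13 TPM, with Gzma the highest at 2.53 TPM and Klra8 at 0 in all libraries. Of the CD8 T cell genes, Cd8b1 stood at 21.4 and Cd8a at 1.64 TPM. The T follicular list (4 genes, 3 detected) summed to between 76.9 and 83.5 TPM, from Pdcd1 at 53.5 to Il21 at 0.297 TPM. The part of such cells in the member levels was not tested. Of the other lists, B cell markers (6 genes, 5 detected) summed to between 43.7 and 56.2 TPM, from Cd79b at 29.3 to Pax5 at 0.0867 TPM. Dendritic cell markers (6 genes, 1 detected) summed to between 3.63 and 4.20 TPM, from Zbtb46 at 1.83 to Flt3 at 0.0867 TPM. NKT and innate-like T cell markers summed to between 1.11 and 1.27 TPM, from Klrb1c at 1.15 to Zbtb16 at 0.0667 TPM. Platelet markers summed to between 0.83 and 1.12 TPM, from Itga2b at 0.520 to Gp1bb at 0 TPM. In the granulocyte and mast cell list, none of 6 genes was detected, from S100a8 at 2.65 to Ms4a2 at 0.00667 TPM.

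Sh2d1a (ENSMUSG00000005696.11, chromosome X, 42502453 to 42529330, plus strand), the gene of the adaptor SAP, stood at 220.3, 212 and 208 TPM, a mean of 214 ± 6.07 TPM. It ranked below Cd48 and Slamf6 and above every other receptor gene of the family in each library. The related adaptor genes Sh2d1b1 and Sh2d1b2, which encode the EAT-2 adaptors of NK and myeloid cells, stood at 0.15 and 0.07 TPM in library 1 and at 0 in libraries 2 and 3.

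Of 21 further genes of SLAM signalling, 19 were detected, and the median over all 21 was 139 TPM, with 11 above 100 TPM. The genes that were not detected were Sh2d1b1 and Sh2d1b2. Cd2, a related receptor gene whose product binds the Cd48 product, was the most abundant at 1322 ± 27.3 TPM. Among the kinases and effectors that SAP brings to the receptor, Fyn, the kinase itself, stood at 374 ± 18.1 TPM, and Sh2d1a lay below it by a log2 ratio of -0.81 ± 0.04. Prkcq, the kinase PKC-theta, stood at 208 ± 1.82 TPM and Vav1, a guanine nucleotide exchange factor, at 139 ± 9.67 TPM. Bcl10, an adaptor of NF-kappaB signalling, reached 77.2 ± 2.22 TPM and Arhgef7, another exchange factor, 12.8 ± 3.07 TPM.

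The other Src family kinase gene on the list, Lck, stood at 1161 ± 9.21 TPM, and Csk, the kinase that restrains Src kinases, at 165 ± 4.05 TPM. Of the inhibitory phosphatase genes, Ptpn6 (SHP-1) stood at 240 ± 19.7 TPM, Inpp5d (SHIP-1) at 169 ± 4.67 TPM and Ptpn11 (SHP-2) at 21.5 ± 2.58 TPM. Of the adaptors downstream of Slamf1, Grb2 stood at 233 ± 6.87, Dok2 at 166 ± 12.6, Rasa1, a Ras GTPase-activating protein gene, at 78.9 ± 3.95 and Dok1 at 45.1 ± 2.93 TPM. Genes of the phosphoinositide kinase complex that binds the Slamf1 product in phagosomes were all detected, with Becn1 at 188 ± 5.86, Uvrag at 48.4 ± 5.32, Pik3c3 at 29.4 ± 1.68 and Pik3r4 at 26.4 ± 4.35 TPM.

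**Figure D2:**
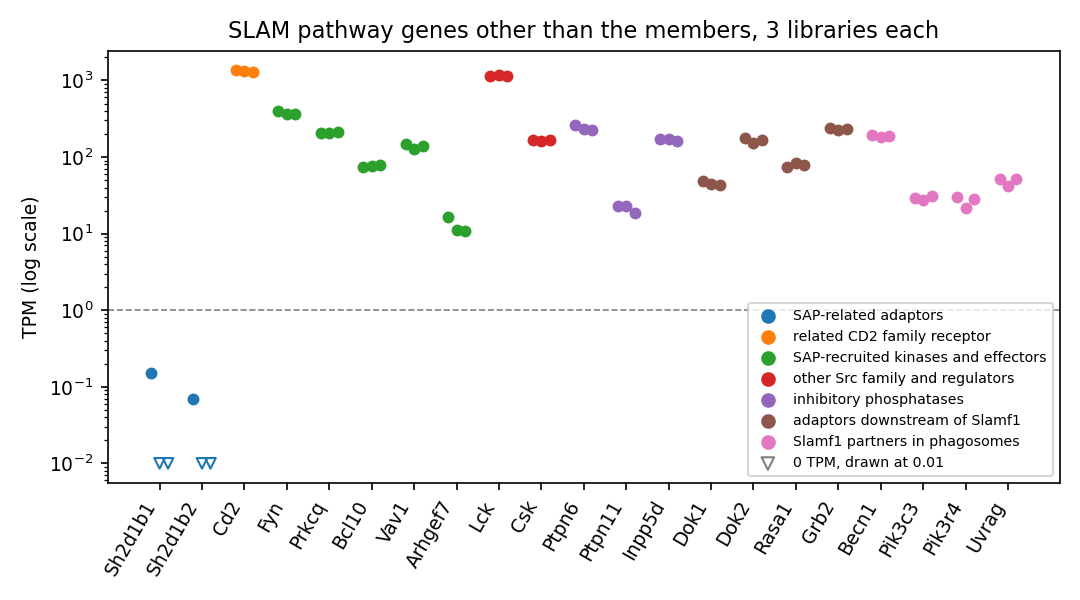
TPM (log axis) of the 21 pathway genes, coloured by role, with a point for each of libraries 1, 2 and 3 from left to right; open triangles mark 0 TPM and the dashed line 1 TPM. Cd2 and Lck lie highest, at 1322 and 1161 TPM, and the SAP-related adaptor genes Sh2d1b1 and Sh2d1b2 are the only ones below 1 TPM.

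Whether the libraries gave a gene equal shares of their counts was tested for every gene with enough reads (chi-square test on rounded expected counts, 2 degrees of freedom, Benjamini-Hochberg adjustment over 15945 genes). Of all genes tested, 65.8% were called at 0.05, so libraries of the same biosample differed by more than counting noise for most genes. Of the 8 members with enough counts, 5 were called, a share close to that background. Slamf6 had an adjusted p of 4.64e-16, from 401, 423 and 381 CPM, and Slamf7 one of 8.5e-06, from 13.7, 11.7 and 16.3 CPM. The adjusted p was 5.77e-05 for Ly9, 0.000852 for Slamf1 and 0.0206 for Cd48, and it was 0.0551 for Cd84, 0.0801 for Cd244 and 0.112 for Sh2d1a. Of the 19 pathway genes tested, 14 were called.

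After division of the chi-square by the overdispersion shared by all genes tested (8.62), 1.85% of genes were called. None of the 8 members was among them, with an adjusted chi-square p of 0.258 for Slamf6, the lowest, and 1 member at an unadjusted p under 0.05. None of the 19 pathway genes was called either, with 5 at an unadjusted p under 0.05. The share of all genes tested under that unadjusted cutoff was not computed, so neither count is read as a result about these genes. The spread beyond counting noise was between 1.68% and 5.17% of the mean for the 6 most abundant members and 15.8% for Slamf7, with Slamf7 the most variable of the 7. By edgeR's own estimate, the biological coefficient of variation (here technical) was between 4.56% and 5.72% for these 6 members, beside a trend of between 5.24% and 6.43% for genes of their abundance, and 15.3% for Slamf7, beside a trend of 15.0%. Leaving out library 3 brought the members called by the first test to 3 (Slamf1 and Slamf7 were lost), leaving out library 1 to 4 (Cd48 and Ly9 lost, Cd244 gained), and leaving out library 2 kept 5 (Cd48 lost, Cd84 gained). Over all genes, 6656 of 14787 were called without library 3, 7265 of 14956 without library 1 and 6069 of 14779 without library 2. Each of these was a smaller share than with all libraries, so the member counts are not read as a result about the members.

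The transcripts behind these levels are given as shares of the gene's TPM, for transcripts with a mean share of at least 5%. Cd48 came almost wholly from Cd48-202, at 99.4%. Slamf1 came from Slamf1-201 (94.1% ± 1.08) and a retained intron transcript, Slamf1-202 (5.92%). Ly9 came mostly from Ly9-202 (78.8% ± 2.04). A second transcript, Ly9-201 (13.9% ± 2.10), lacks an exon of 330 bases, or 110 codons, and Ly9-204 (6.17%) is annotated as subject to nonsense-mediated decay.

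**Figure D3:**
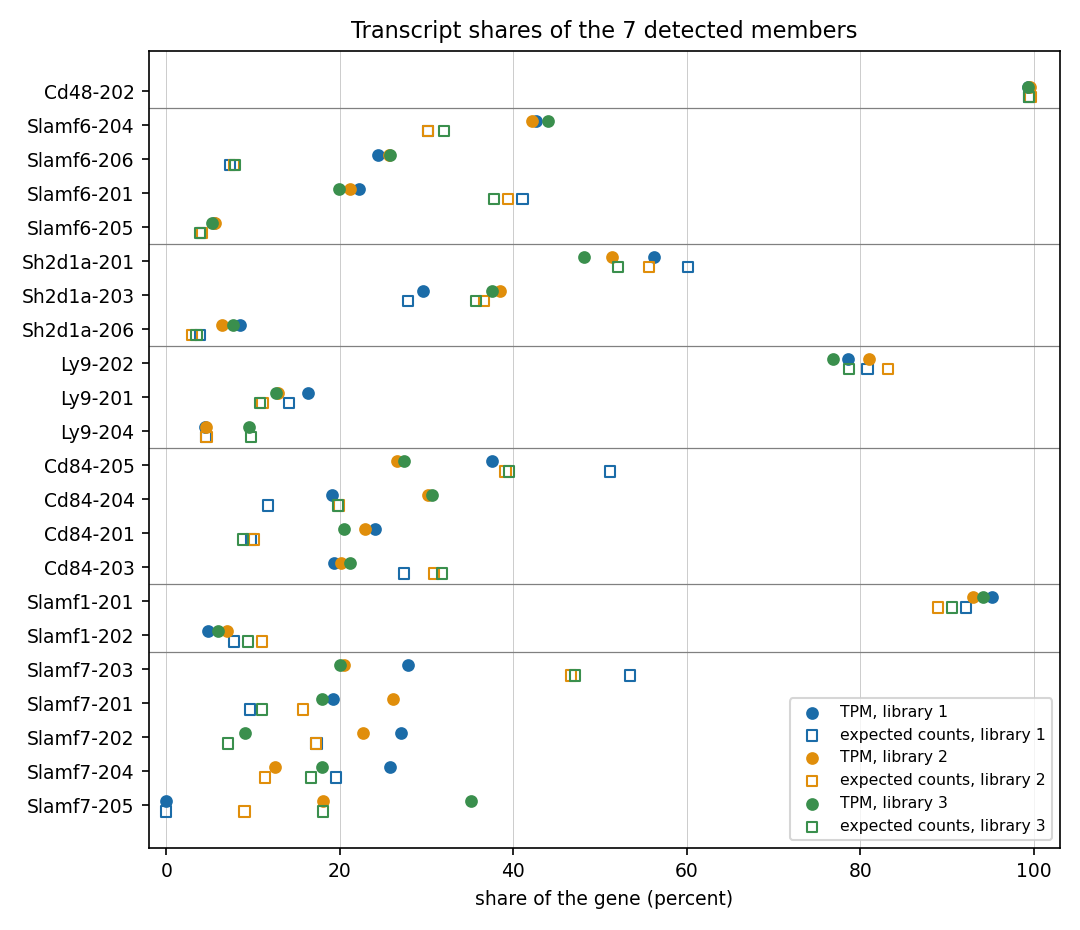
Share of each gene's TPM (filled points) and expected counts (open squares) that fell on each transcript, in percent, for the 7 detected members and each of the 3 libraries. Cd48-202 and Slamf1-201 hold 88.9% or more of their genes in every library by both measures, whereas for Slamf6, Cd84 and Slamf7 the order of the mean shares differs between TPM and counts.

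For Slamf6, Slamf6-204 led with 42.9% ± 0.964 of the TPM, before Slamf6-206 (25.3% ± 0.764), Slamf6-201 (21.1% ± 1.17) and the retained intron transcript Slamf6-205 (5.48%). By expected counts the order was another, with Slamf6-201 at 39.4% and Slamf6-204 at 30.8%. Slamf6-206 is a processed transcript of 444 bases with no coding sequence, and all 444 of these bases lie inside exons of Slamf6-201 or Slamf6-207. It held 7.67% of the gene's expected counts. Complete coding transcripts alone gave Slamf6 332 ± 11.3 TPM.

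Slamf6-204 skips an exon of 72 bases that is present in Slamf6-201 and holds the second switch motif. The exon (chr1:171941625-171941696, plus strand) is printed because the skipping leaves the encoded tail with 1 motif, and the capitals mark the motif.
Slamf6 skipped exon: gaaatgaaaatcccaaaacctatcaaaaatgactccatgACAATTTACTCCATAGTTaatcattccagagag
Transcripts with 1 motif stood at 209, 214 and 208 TPM (210 ± 3.57) and transcripts with 2 motifs at 127, 127 and 112 TPM (122 ± 8.70), with no overlap between them. By expected counts the order was the other way round, with 30.8% of the gene's counts on transcripts with 1 motif and 55.6% on transcripts with 2. Slamf6-204, the form with 1 motif, is annotated with 984 bases for 327 codons, which leaves little or no untranslated sequence. Slamf6-201 and Slamf6-207 have 2485 and 5729 bases for 331 and 351 codons. Which form was more abundant therefore depends on how length is treated, and the part of these unlike lengths was not tested.

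Sh2d1a came from Sh2d1a-201 (51.9% ± 4.05) and Sh2d1a-203 (35.2% ± 4.87), with 7.53% on the incomplete transcript Sh2d1a-206. The first 2 differ at the end of the first coding exon (chrX:42502827-42502859, plus strand), where Sh2d1a-203 lacks the 9 bases in capitals and so encodes 123 instead of 126 residues.
Sh2d1a first exon end: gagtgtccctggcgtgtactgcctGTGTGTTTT
Cd84 was spread over Cd84-205 (30.5% ± 6.12), Cd84-204 (26.7% ± 6.50), Cd84-201 (22.5% ± 1.81) and Cd84-203 (20.2% ± 0.936). Cd84-204 lacks the first 3 bases, in capitals, of the exon that holds the first motif, whose start (chr1:171884585-171884617, plus strand) is printed.
Cd84 exon start: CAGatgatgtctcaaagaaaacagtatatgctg
The transcripts that keep these 3 bases, Cd84-201 and Cd84-205, held 61.6%, 49.4% and 47.9% of the TPM in libraries 1, 2 and 3, highest in library 1. Cd84-203 has 2 exons and encodes 140 residues with no hydrophobic stretch. Its second exon runs 2962 bases past the end of the second coding exon of Cd84-205, into an intron of that transcript.

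Slamf7 was spread over 5 coding transcripts with unequal shares between libraries. Slamf7-203 held 22.8%, Slamf7-201 21.1%, Slamf7-202 19.6%, Slamf7-204 18.8% and Slamf7-205 17.7% ± 17.5 of the TPM. By expected counts Slamf7-203 held 49.1% and Slamf7-201 12.2%. Slamf7-205 alone took 0%, 18.1% and 35.1% in libraries 1, 2 and 3, so the order of these transcripts was not resolved at between 381 and 605 counts per library. Slamf7-202 skips an exon of 104 bases (chr1:171637297-171637400, minus strand), which shifts the reading frame before the motif. Slamf7-205, of 281 codons, also lacks the motif.
Slamf7 skipped exon: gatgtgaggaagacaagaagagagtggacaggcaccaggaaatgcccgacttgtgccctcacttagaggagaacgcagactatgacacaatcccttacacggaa
Transcripts without the motif stood at 2.93, 4.35 and 6.84 TPM, and transcripts with it at 7.89, 6.31 and 8.67 TPM. For Cd244, Cd244a-203, annotated as a target of nonsense-mediated decay, took 83.5%, 15.7% and 100% of the TPM in libraries 1, 2 and 3, and the coding transcript stood at 0.01, 0.09 and 0 TPM.

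Over all receptor genes, complete coding transcripts with at least 1 tail motif summed to 602, 594 and 570.2 TPM in libraries 1, 2 and 3, a mean of 589 ± 16.5 TPM. Slamf6 supplied 56.4% ± 0.919 of this sum by TPM and 48.0% ± 1.40 by expected counts of the same transcripts. A further measure, chosen after seeing the data, took all counts of each of these receptor genes, including those on transcripts without a motif. It divided them by the length of the gene's longest complete coding transcript. By it the share of Slamf6 was 30.6% ± 1.16, and Ly9 (72.6 ± 3.18) and Slamf6 (70.7 ± 3.70 CPM per kb) lay within their SDs. Complete coding transcripts of Sh2d1a stood at 189, 191 and 179 TPM, a mean of 186 ± 6.56 TPM. The receptor sum was 3.16 ± 0.0424 times the adaptor level by TPM. With all counts of the same genes per base of their longest complete coding transcripts, which is not the same sum, the ratio was 2.61 ± 0.0265. Protein was not measured.

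**Figure D4:**
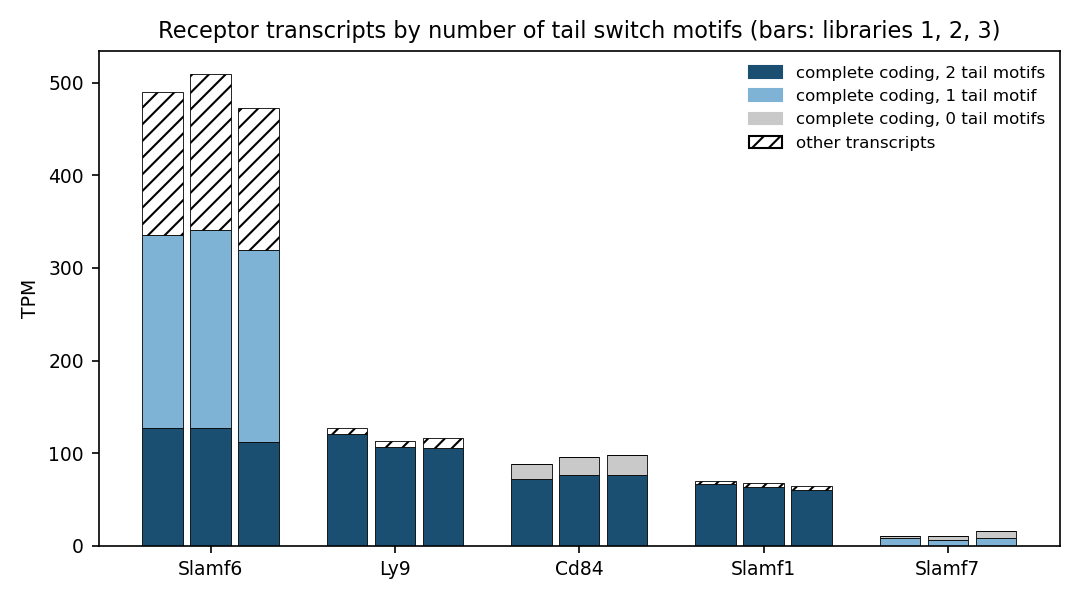
TPM of the 5 detected receptor genes with a tail motif, stacked by the number of tail motifs in complete coding transcripts, with all other transcripts hatched; the 3 bars of each gene are libraries 1, 2 and 3. Slamf6 is the only one of the 5 with transcripts of 1 and of 2 tail motifs, at 210 and 122 TPM, and Ly9, Cd84 and Slamf1 hold mostly transcripts with 2. By expected counts the order of these Slamf6 forms is the other way round.

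All 9 receptor genes lie on chromosome 1 in 2 groups. The first group, from Cd244 to Slamf6, spans 394.0 kb and holds 7 members, of which 6 were detected. It holds 12 other annotated genes, of which 1 is protein coding and 3 were detected. The only one of them with a mean of at least 10 TPM was the processed pseudogene Tma7-ps, at 25.1, 4.20 and 15.4 TPM. Such a pseudogene can share reads with its parent gene, so its level is uncertain. The second group lies 522.2 kb further on, spans 115.2 kb and holds Slamf9 and Slamf8, neither of which was detected. Among its 6 other genes, 1 was detected, Tagln2, which encodes an actin-binding protein, at 301 ± 3.98 TPM.

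**Figure D5:**
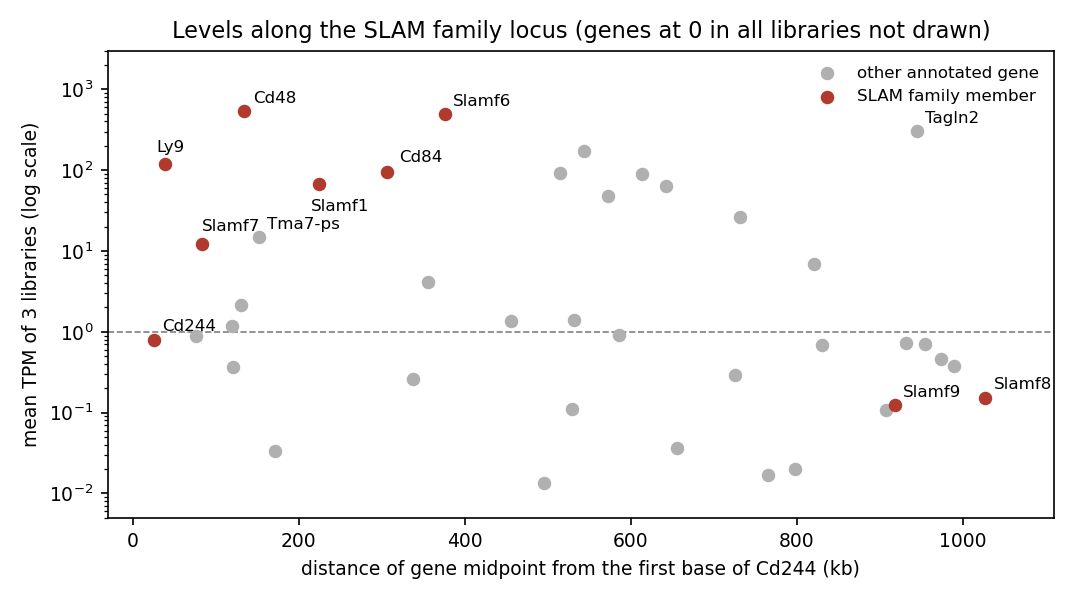
Mean TPM of the 3 libraries (log axis) against the distance of each gene's midpoint from the first base of Cd244, in kb, for the members and all other annotated genes of the region; the dashed line marks 1 TPM and genes at 0 in all libraries are left out. Receptor genes of the family above 1 TPM lie within the first 394.0 kb, and Slamf9 and Slamf8 lie at 916 kb or further, beside Tagln2 at 301 TPM.

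Levels of neighbouring members differed widely within the first group. Ly9 lies wholly inside the span of Cd244, on the other strand, and stood at 119 TPM beside 0.803 TPM for Cd244. The exons of the pair share 0 bases, and both genes had whole expected counts in all libraries, within 0.005. Slamf1 (3714, 3901.77 and 4104.34) and Slamf7 (431.49, 380.55 and 605.22) were the only members with expected counts that were not whole. Shared reads give such counts, so these levels are less certain in that respect only. Slamf6 had whole counts, yet its level moved from 491 to 332 TPM with complete coding transcripts only. The antisense gene Gm37065 overlaps Slamf6 and had 34, 34 and 73.8 expected counts, beside at least 12601 for Slamf6.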

How the data were processed

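Polyadenylated RNA was measured in 3 technical libraries of 1 biosample. Per the file headers and the submitters' notes, the authors deposited, on mm10 with GENCODE M21, an expected count, a TPM and an FPKM per gene or transcript, with reads that match several features split between them. The sources used here do not name the aligner or the quantification program. The authors also deposited a smaller table of whole-number counts per gene (GENCODE M4), whose counting rule is not stated. Its counts were a median of 52.1% of the expected counts in genes with up to 1 expected count per base and 4.36% in genes above 10 per base, so they levelled off with abundance.

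Genes were named through the GENCODE M21 annotation; 0.125%, 0.182% and 0.155% of counts fell on rows without an annotated gene and were left out. TPM was used as deposited and expected counts were rounded for the chi-square test, which needed a summed count of at least 30 and was checked on simulated data. Since a single group has no contrast, no edgeR quasi-likelihood test was made; edgeR 4.0.16 (TMM, dispersion) and DESeq2 1.42.0 (size factors) ran in R 4.3.3, the rest in Python 3.11.15 with scipy 1.17.1, pandas 2.3.3 and biopython 1.88. Sequences are from the mm10 transcripts of GENCODE M21. Floors of 3 counts cover counting error only, since reads carry no molecular identifiers.

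The text names all 10 members, all 21 pathway genes, transcripts from a 5% share, genes within the member groups from 10 TPM, and the highest and lowest gene of each marker list, plus antisense genes that overlap members, chosen after their values were seen. The members and lists were chosen with earlier results of these data known. Alternatives changed the detection limit, the unit, the scaling, the count filter, the test, the table and the libraries used.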

Additional observations from a re-analysis of the deposited data

How the results depend on the processing

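Detection counts of members and pathway genes stayed within 1.5 times of the reported counts under all alternatives run (0.5 and 10 TPM, 1 FPKM, 10 counts in the smaller table, each library left out). The order of the members depended on the treatment of length. In CPM the log2 ratios of Cd48 to Slamf6 and of Sh2d1a to Ly9 became -0.0736 and -0.772. The smaller table has no length correction and held 11.2% of the expected counts of Cd48, 16.6% of Slamf6, 19.9% of Sh2d1a, 44.7% of Ly9, 25.6% of Cd84, 30.7% of Slamf1 and 54.3% of Slamf7. There the ratios of Cd48 to Slamf6 and of Sh2d1a to Ly9 became -0.64 and -1.94, both beyond the spread in the reverse direction. Cd84 to Slamf1 became -0.0476, within the spread. In the reported direction, 3 pairs instead of 6 exceeded the spread. Per base of the longest complete coding transcript, an alternative chosen after seeing the data, Cd48 to Slamf6 became 2.25, Slamf6 to Sh2d1a -0.32 and Cd84 to Slamf1 -0.14. These longest transcripts held little of the TPM for Slamf6 (3.70%) and Sh2d1a (0.0437%). For Cd84 the longest was Cd84-203, which encodes 140 residues and held 20.2%. With complete coding transcripts only, also chosen after seeing the data, Cd48 to Slamf6 became 0.69 and Ly9 to Cd84 (0.23) no longer exceeded 2 SD. Ly9 ranked first in the smaller table and Slamf6 first in CPM. The cause was not tested. Of 15945 genes tested, 10487 were called, and 295 with the scaled chi-square. In the smaller table, 3839 of 11469 genes tested were called. With a library left out, the counts were 7265 of 14956 without library 1, 6069 of 14779 without library 2 and 6656 of 14787 without library 3. Of the members, 0 were called with the scaled chi-square, 1 (Slamf7, adjusted chi-square p = 0.000221) in the smaller table and between 3 and 5 with a library left out. With TMM or DESeq2 scaling, 6 members were called, with Cd84 added (adjusted chi-square p = 0.0211 and 0.0235), beside 10467 and 10470 of 15945 genes. The leading transcript changed for Slamf6 by counts, for Cd84 and Slamf7 without library 1 and for Slamf7 without library 3. No paired analysis was possible because there was 1 group. Members below 1 TPM rested on at most 39 counts a library, too few to order them. The receptor sum over Sh2d1a was 7.78 by expected counts, which carry no length correction.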

Other observations

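The stretch of 522.2 kb between both groups of SLAM family genes, outside the rule for named genes and looked at after its values were seen, held several genes at levels like those of the detected members. Copa, which encodes a coat protein of vesicle transport, stood at 173 ± 8.79 TPM (SD, n = 3 technical libraries), Ncstn, a subunit gene of gamma-secretase, at 93.3 ± 8.52 TPM and Pea15a, a death effector domain gene, at 62.9 ± 3.74 TPM. Pex19, a peroxisome biogenesis gene, stood at 47.8 ± 0.824 TPM. The immunoglobulin superfamily gene Igsf8 stood at 26.6 ± 1.58 TPM, whereas Igsf9, which lies beside Slamf9, stood at 0.57, 1.20 and 0.40 TPM.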
